A study of Homo sapiens with 2 samples.

Results

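The transcripts described here encode 5 proteins of the nucleolus: NCL, NPM1, FBL, NOP56 and DKC1. They were chosen by gene, as all listed A positions of the transcript strand within 5 hg19 windows. The rule uses no measured value, but the genes were picked with earlier results of these data known. The windows hold 2779 of the 4736485 positions listed in either library, 2729 of them in the ABA library and 2726 in the library without ABA. Messenger RNA was compared between HEK-293T cells that had a CIRTS-hADAR biosensor and the small molecule ABA, and cells that had the same biosensor and no ABA. HEK-293T is an embryonic kidney line of human origin, and CIRTS are engineered proteins that bind RNA through a guide. Each condition had 1 library from 1 biological replicate, so no difference between conditions has a replicate check, and intervals (95%) cover counting error alone. Exact tests on reads compare the 2 libraries, not the conditions. The labels give neither the ABA dose and time nor how the biosensor was delivered.

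The nucleolus is where ribosomal RNA is made, cut, modified and packed into ribosomal subunits. Small nucleolar RNAs guide many of the modifications: box C/D particles direct ribose methylation, and H/ACA particles direct pseudouridylation. In such particles the RNA finds the target by base pairing and a bound protein enzyme acts on it. ADAR enzymes deaminate adenosine to inosine in double-stranded RNA, and sequencing reads inosine as G, so the readout here was the A-to-G mismatch at adenosines of the transcript. The 5 messenger RNAs themselves are translated in the cytoplasm, and the proteins are then imported.

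The ABA library held 3518802 listed positions with 45277712 base reads, and the library without ABA held 4079392 with 51092343. Median depth was 10 reads per listed position in both. RefSeq's gene table (GRCh38.p14) lists all 5 symbols as protein-coding genes on the chromosomes used here, and no hg19 annotation was used, so exons and untranslated regions are not named. Markers of HEK-293T cells were therefore not analysed here. None of the 2779 member positions was variant-like, that is, had a G share of 35% or more in either library.

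The position with the most G reads in each transcript is printed here with the 10 bases on each side, to give the local arrangement of adenosines on the transcript strand. Each line runs 5' to 3' and was drawn from the listed positions themselves: a is a listed A position, n is a base not listed as one, and the capital is the named site. In NPM1, several positions tied at 2 G reads and the one with the highest share over both libraries is printed.
NCL, chr2:232324892-232324912 (hg19, minus): nnnnnnaaaaAnnannnnnnn
NPM1, chr5:170827841-170827861 (hg19, plus): nnnnnanannAnanannnnan
FBL, chr19:40328465-40328485 (hg19, minus): nnnannnnnnAnnnnannnan
NOP56, chr20:2637741-2637761 (hg19, plus): nnnnnanannAnnannaannn
DKC1, chrX:153995596-153995616 (hg19, plus): nnnnnnannnAnnannannna
The NCL site closes a run of A positions, whereas the printed sites of the other 4 transcripts have no A directly before them. Among the NPM1 positions tied with the printed one, 170817077 and 170819724, which are named further on, do have one.

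Pooled over all listed positions, the A-to-G rates of NCL and NPM1 were nearly equal in both libraries, while those of FBL, NOP56 and DKC1 were higher in number with ABA. The series title names small-molecule-inducible RNA targeting, and the comparison asks whether ABA goes with more A-to-G mismatches in these transcripts. NCL encodes nucleolin, an abundant RNA-binding protein of ribosomal RNA synthesis and processing. Its positions (chr2:232318242-232329205, minus strand) had 31 G reads of 42199 with ABA, a rate of 0.0735% (0.0499 to 0.104), and 31 of 42667 without ABA, 0.0727% (0.0494 to 0.103). The ratio was 1.01 (0.594 to 1.72). The rates of both libraries thus lay well inside each other's intervals.

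NPM1 encodes nucleophosmin, a nucleolar chaperone that takes part in ribosome assembly. In its window (chr5:170814708-170837888, plus strand) 31 of 21732 reads were G with ABA, 0.143% (0.0969 to 0.202), and 33 of 21861 without ABA, 0.151% (0.104 to 0.212). The ratio was 0.945 (0.560 to 1.59). Processed pseudogenes of NPM1 are known. The sources used here do not say how reads matching several copies were placed, so the NPM1 values are uncertain to that extent.

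The snoRNP proteins had fewer G reads and wider intervals. FBL encodes fibrillarin, the methyltransferase of box C/D particles. Its window (chr19:40325093-40337054, minus strand) had 18 G reads of 9805 with ABA, 0.184% (0.109 to 0.290), and 6 of 9430 without ABA, 0.0636% (0.0234 to 0.138), a ratio of 2.89 (1.10 to 8.88). Of these reads, 5 with ABA came from 1 position, 40328475. Without it the counts were 13 and 6, and the ratio was 2.09 (0.740 to 6.69), an interval that includes 1.

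NOP56, a core protein of the same box C/D particles (chr20:2633178-2639039, plus strand), had 11 G reads of 12892 with ABA, 0.0853% (0.0426 to 0.153), and 5 of 11731 without ABA, 0.0426% (0.0138 to 0.0994). The ratio was 2.002 (0.641 to 7.35). DKC1 encodes dyskerin, the pseudouridine synthase of H/ACA particles and a component of telomerase. It had 6 G reads of 12659 with ABA, 0.0474% (0.0174 to 0.103), and 2 of 13643 without ABA, 0.0147% (0.00178 to 0.0529), over chrX:153991017-154005964 on the plus strand. The ratio of 3.23 (0.578 to 32.8) rests on 8 reads, and without the 2 reads at position 153995606 it was 2.16 (0.309 to 23.8). For both genes the intervals of the 2 libraries overlap.

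**Figure D1:**
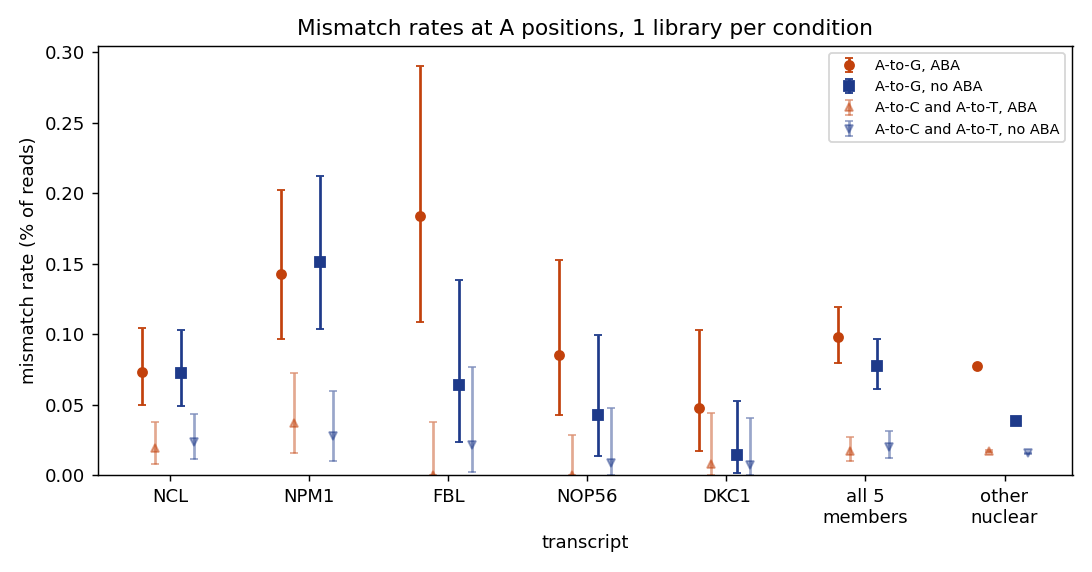
Mismatch rate in percent of reads (vertical axis) for each transcript, the 5 together and all other nuclear positions, with ABA (orange) and without ABA (blue). Points are pooled rates of 1 library and bars are 95% Clopper-Pearson intervals. NCL and NPM1 have nearly the same A-to-G rate in both libraries, and FBL has 0.184% with ABA against 0.0636% without.

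No transcript passed a test across the whole table. Fisher's exact test was run on the 5 windows together with all other 10 kb windows of each strand that had at least 1000 reads in each library. The A-to-G rate of 0.253% of these 11073 windows was raised at an adjusted p under 0.05 and that of 0% was lowered, while 0 of the 5 transcripts were called. FBL came nearest, with an exact p of 0.0232 and an adjusted p of 0.999. The exact p was 0.165 for DKC1, 0.218 for NOP56, 0.901 for NPM1 and 1 for NCL, and each adjusted p was 1. The intervals of NOP56 and DKC1 include both equal rates and the ratio of the other nuclear positions.

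Against the other nuclear positions, NCL and NPM1 had the smaller ratios. Those positions, on chromosomes 1 to 22 and X with variant-like ones left out, had 0.0776% with ABA and 0.0386% without ABA, a ratio of 2.01 (1.98 to 2.05). The NCL ratio was 0.502 times as large (0.305 to 0.827), and the NPM1 ratio 0.470 times (0.288 to 0.767). Both intervals, which are normal approximations, exclude 1. The same quotient was 1.43 (0.569 to 3.61) for FBL, 0.995 (0.346 to 2.86) for NOP56 and 1.61 (0.324 to 7.96) for DKC1, all of which include 1. For the 5 transcripts together, with 97 G reads with ABA and 77 without, the ratio was 1.26 (0.925 to 1.72), which is 0.626 times (0.464 to 0.845) that of the other nuclear positions. Of 10 pairs of members, FBL against NPM1 alone had a quotient of ratios whose interval excluded 1, at 3.05 (1.07 to 8.69), with no adjustment for the 10 pairs. FBL against NCL had 2.85 (0.999 to 8.15).

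**Figure D2:**
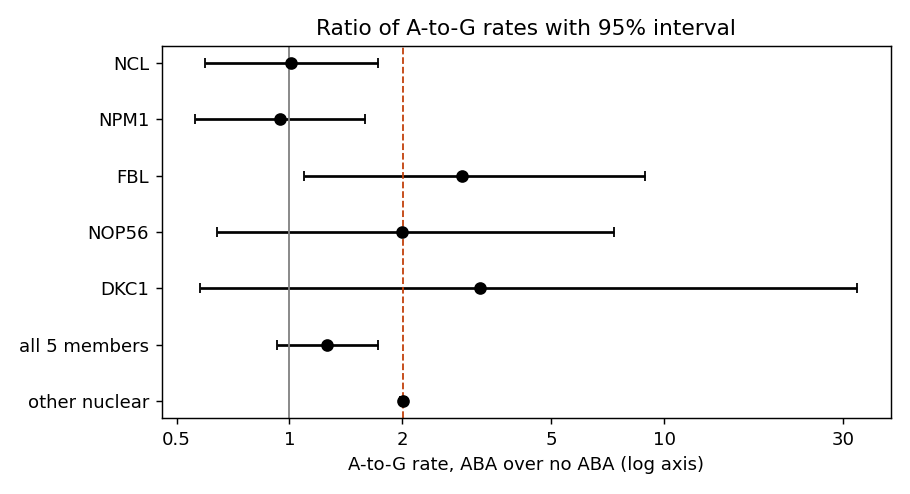
A-to-G rate with ABA over that without ABA (horizontal log axis) for each transcript, the 5 together and all other nuclear positions. Bars are exact 95% intervals, the grey line is 1 and the dashed line is the ratio of the other nuclear positions, 2.01. The bars of NCL and NPM1 end at 1.72 and 1.59, left of the dashed line, and the other 3 transcripts' bars cross it.

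The contrast depended on the scale. As a difference in percentage points (ABA minus no ABA, normal approximation), NCL had 0.000806 (-0.0356 to 0.0372), against 0.0390 (0.0381 to 0.0400) for the other nuclear positions. NPM1 had -0.00831 (-0.0802 to 0.0636), an interval that includes the nuclear difference. FBL had 0.120 (0.0211 to 0.219), NOP56 0.0427 (-0.0200 to 0.105) and DKC1 0.0327 (-0.0103 to 0.0758). On this scale only the NCL interval lay below the nuclear difference, and none lay above it.

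NPM1 and NCL also had higher rates than the other nuclear positions in the library without ABA. There the NPM1 rate was 3.91 times (2.69 to 5.50) that of the other nuclear positions, and the NCL rate 1.88 times (1.28 to 2.68). With ABA, where the other positions were higher, NPM1 was 1.84 times (1.25 to 2.61) and NCL 0.947 times (0.643 to 1.34) as high as they were. FBL was 2.37 times (1.40 to 3.74) as high as the other positions with ABA and 1.65 times (0.605 to 3.59) without. These values take no account of depth, and the values by depth, given further on, change the order for NCL. The rates of NOP56 and DKC1 did not differ from the other positions beyond counting error in either library.

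The other mismatches at the same positions were rarer. Changes of A to C or T gave 8 reads with ABA and 10 without in NCL, and 8 and 6 in NPM1. FBL had 0 with ABA, where 3 reads would be 0.0307%, and 2 without ABA. NOP56 had 0 and 1, and DKC1 had 1 and 1. Over the 5 transcripts their rate was 0.0171% (0.00998 to 0.0274) with ABA and 0.0201% (0.0123 to 0.0311) without ABA, a ratio of 0.851 (0.418 to 1.71). The other nuclear positions had 0.0171% and 0.0154%. NPM1 had 0.0369% (0.0159 to 0.0726) with ABA and 0.0275% (0.0101 to 0.0598) without, so its rate of other mismatches was also the highest in number of the 5 transcripts in both libraries. Whether this has a part in its A-to-G rate was not tested.

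Depth differed between the transcripts, and the ratios were therefore also set against other positions of like depth. The mean depth per listed A position, which does not depend on transcript length, was 50.01 reads with ABA and 50.03 without for NCL. It was 43.7 with ABA and 44.2 without for NPM1, 44.2 and 41.4 for FBL, 24.5 and 23.7 for NOP56, and 19.8 and 20.8 for DKC1. At positions with a mean of 50 reads or more over both libraries, NCL had 20 of 27269 G reads (0.0733%) with ABA and 23 of 28106 (0.0818%) without. NPM1 had 23 of 12692 (0.181%) and 26 of 13517 (0.192%). Other nuclear positions of that depth had 0.229% with ABA and 0.123% without, a ratio of 1.87 (1.79 to 1.95). The NCL ratio there was 0.479 times (0.263 to 0.874) the nuclear one and that of NPM1 0.504 times (0.287 to 0.884), and both intervals exclude 1. With ABA the rate of the deep NCL positions (0.0448 to 0.113) lay below that of other deep positions, and without ABA its interval (0.0519 to 0.123) reached theirs.

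Between 20 and 49 reads the members' pooled ratio was close to the nuclear one. The 5 transcripts together had 48 of 45334 G reads (0.106%) with ABA and 23 of 43763 (0.0526%) without ABA, a ratio of 2.01 (1.20 to 3.47), where other nuclear positions had 1.85 (1.79 to 1.91). The quotient to the nuclear ratio was 0.951 (0.352 to 2.57) for NCL and 0.569 (0.191 to 1.69) for NPM1 in this range, so a difference from other positions was not detectable there. Whether the quotients differ between the depth ranges was not tested. Without ABA the NCL rate in this range was 0.0438% (0.0161 to 0.0953) against 0.05001% for other nuclear positions, and that of NPM1 was 0.0870% (0.0319 to 0.189). At like depth NCL was therefore not above the other positions without ABA in either of these 2 ranges. NPM1 was higher in number in both of them, and only its interval at 50 reads or more (0.126 to 0.282) lay above the nuclear rate. At 10 to 19 reads NCL was above the other positions without ABA, at 0.272% (0.0330 to 0.981) against 0.0312%. That NCL value rests on 2 G reads of 734. At 20 to 49 reads NCL contributed 11 and 6 G reads, NPM1 7 and 6, FBL 16 and 6, NOP56 8 and 4, and DKC1 6 and 1. Of 47 other 10 kb windows with at least 60 G reads over both libraries, about the number in NCL and NPM1, 1 had a ratio at or below that of NCL, and the median was 2.01. Over all 6118 other windows that had a G read without ABA, 43.4% were at or below the NCL ratio and the median was 1.16. Windows with G reads in the ABA library alone gave no ratio and were left out. That makes the 43.4% too high and the median too low for windows in general, so neither shows that the NCL ratio is usual. This limit of 60 reads was chosen after the NCL and NPM1 counts were seen, and the value is a description. The limit is also set on the G reads that form the ratio, so windows high with ABA pass it more readily. The 1 of 47 windows therefore does not show that the NCL ratio is unusual.

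G reads were scattered, and few positions recurred. NCL had 27 positions with a G read with ABA and 31 without, of which 2 were the same. NPM1 had 30 and 31 such positions and shared 4. FBL had 13 and 6 with 1 shared, NOP56 11 and 5 with 1 shared, and DKC1 5 and 2 with 0 shared. Among positions listed in both libraries, 5.26% of those with a G read in either of them had one in both, against 3.75% of the other nuclear positions. The 5.26% is 8 of 152 positions, and positions of like depth were not compared. Most member positions with a G read had 1 such read: 79 of the 86 with ABA and 73 of the 75 without ABA.

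At the level of sites, 1871 member positions reached 20 reads in each library. None was called raised or lowered by Fisher's exact test, which asked for an adjusted p under 0.05 and 10 percentage points of change, as for all 359222 nuclear positions tested, where 0% was called either way. The unadjusted exact p was under 0.05 at 0 member positions, against 0.0181% of all. The G share was higher with ABA at 77 of the 1871 and lower at 62, or 4.12% and 3.31%. Over all nuclear positions these shares were 3.29% and 1.87%, but positions of like depth were not compared. NCL had 26 higher and 27 lower positions and NPM1 28 and 25, while FBL had 11 and 6, NOP56 7 and 3, and DKC1 5 and 1.

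The highest G share at a position of 20 or more reads was in FBL, at position 40328475. It had 5 of 52 reads (9.62%, 3.20 to 21.03) with ABA and 0 of 39 without ABA, where the exact interval ends at 9.03% (exact p = 0.0683, adjusted p = 1). Its neighbours in the line printed above are mostly bases not listed as A, the nearest listed A positions being several bases away on both sides. In FBL, position 40325433 had 2 of 41 reads with ABA and 0 of 41 without, and position 40329797 had 1 of 44 and 1 of 31. The 4th FBL site, 40336957, had 1 of 7 reads with ABA and 0 of 17 without, too few to place a share.

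NCL position 232324902, the last A of its run, had 3 of 52 reads (5.77%, 1.21 to 15.9) with ABA and 1 of 52 (1.92%, 0.0487 to 10.3) without ABA. Position 232324870, downstream of it on the transcript, had 2 of 39 and 0 of 35. Position 232323074 had 2 of 41 and 0 of 42, and position 232326436 had 1 of 83 and 1 of 92. These NCL shares do not differ between the libraries beyond counting error.

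The 4 named NPM1 sites each had 2 G reads in all, although they were covered up to 121-fold. Other NPM1 positions tied with them at 2 and are not named, because the naming stopped at 4. Position 170827851 had 1 of 54 with ABA and 1 of 46 without, and position 170817077 had 1 of 70 and 1 of 90. Position 170819724 had 1 of 90 and 1 of 121, and position 170832356 had 0 of 48 and 2 of 53. The high NPM1 rate was thus spread over the transcript and did not come from 1 edited site.

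In NOP56, position 2637751 had 1 of 40 reads with ABA and 1 of 35 without, and the other 3 named positions had 1 G read each. Among these, position 2638696 had 1 of 13 reads with ABA and was not listed without ABA. Position 2634019 had 1 of 13 with ABA and 0 of 24 without, and position 2638815 had 0 of 19 and 1 of 15. In DKC1, position 153995606 had 2 of 27 reads (7.41%, 0.910 to 24.3) with ABA and 0 of 28 without. Positions 153996705 and 154004547 had 1 G read with ABA, of 24 and 22 reads, and 0 without, and position 154003517 had 0 of 17 with ABA and 1 of 17 without. None of the named sites had a C or T read in either library.

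No member position met the limits for an edited site, which were a depth of 20, 3 reads with G and a G share of 10%. With ABA 0 of 2042 covered member positions met them, where 3 counts would be a share of 0.147%, against 0.0423% of all covered nuclear positions. Without ABA it was 0 of 2032, against 0.0197%. The members' count is therefore not distinguishable from the nuclear share at this number of positions. Positions with at least 3 G reads numbered 2 with ABA, 40328475 in FBL and 232324902 in NCL, and 0 without ABA.

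G reads were next followed along the transcripts in blocks, which join listed positions at most 100 nt apart and largely stand for stretches between gaps in coverage. The 5 transcripts had 59 blocks, 53 of them with at least 200 reads in each library. None of the 53 was called at an adjusted p under 0.05 in Fisher's exact test, where 0.0133% of 45236 nuclear blocks were raised and 0% lowered. The rate was higher with ABA in 27 member blocks and lower in 14, or 50.9% and 26.4%, and 12 had no G read in either library. Of all nuclear blocks 27.9% were higher and 13.5% lower. The member blocks were not compared with blocks of like depth, so these shares show nothing particular to them.

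For 3 of the 53 blocks the unadjusted exact p was under 0.05, against 0.663% of nuclear blocks. A block without G reads cannot reach such a p. Of the nuclear blocks 26490 of 45236 had no G read in either library, against 12 of the 53 member blocks. Blocks of like depth were not compared here either, so the count of 3 shows nothing particular to the members. The 3 blocks did not point the same way. In FBL the fifth of 8 blocks (40328354 to 40328482) had 6 of 1548 G reads (0.388%) with ABA and 0 of 1277 without (exact p = 0.0354), and 5 of the 6 lie at position 40328475. In NPM1 the eighth of 12 blocks (170832308 to 170832407) had 1 of 3156 with ABA and 7 of 2861 (0.245%) without (exact p = 0.0313). In NCL the last of 14 blocks (232319472 to 232319974) had 1 of 3594 with ABA and 7 of 3464 (0.202%) without (exact p = 0.0357). Each adjusted p was 1.

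Among the 3 blocks with the most reads in each transcript, those of NCL, NPM1 and FBL include the blocks just described. Of the others, none reached an unadjusted exact p under 0.05. The third NCL block (232326253 to 232326722) had 10 of 10085 G reads (0.0992%) with ABA and 8 of 10358 (0.0772%) without, and the fourth (232325381 to 232325577) had 2 of 5105 and 3 of 5915. The deepest NPM1 block (170819720 to 170819982) had 6 of 3168 (0.189%) with ABA and 7 of 3723 (0.188%) without, and its last block (170837555 to 170837885) had 5 of 3268 and 6 of 3365. The deepest FBL block (40325309 to 40325455) had 4 of 2980 with ABA and 2 of 2749 without, and the fourth (40329686 to 40329844) had 6 of 1758 and 1 of 1556. In NOP56 the last block (2638576 to 2639030) had 4 of 3833 and 1 of 3230, and the fifth (2635973 to 2636389) had 1 of 2457 and 2 of 2338, while the ninth (2637725 to 2637863) had 3 of 1684 and 1 of 1446. The last DKC1 block (154005075 to 154005929), its deepest, had 0 G reads of 3820 with ABA and 0 of 4215 without ABA. The fourteenth (154004465 to 154004595) had 1 of 1182 and 1 of 1486, and the fifth (153994492 to 153994674) had 0 of 926 and 0 of 994.

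**Figure D3:**
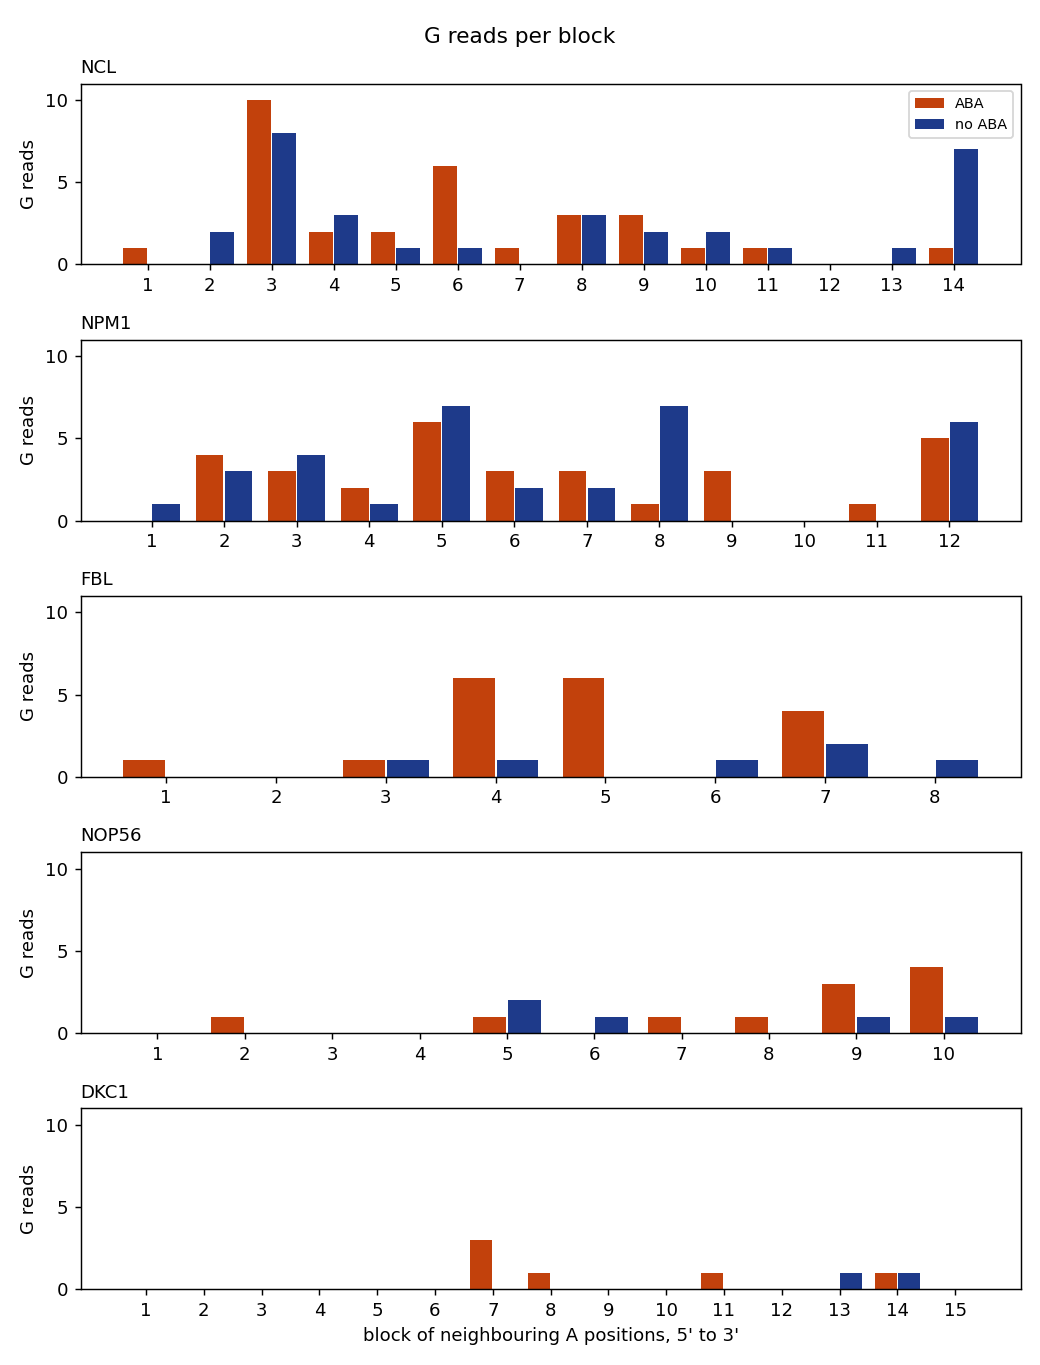
Number of G reads (vertical axis) in each block of neighbouring A positions, numbered 5' to 3' along each transcript (horizontal axis), with ABA (orange) and without ABA (blue). Block 3 of NCL holds the most, 10 and 8 reads. The FBL reads with ABA lie mostly in blocks 4, 5 and 7, and the no ABA reads exceed the ABA reads most in the last NCL block and block 8 of NPM1.

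In NCL and NPM1 the near-equal totals joined differences of opposite sign at positions with and without an A before them. A listed position directly upstream marks such a neighbour, and only positions of 20 or more reads in each library were used. After an A, NCL had 15 of 14293 G reads (0.105%) with ABA and 8 of 14279 (0.0560%) without ABA. After another base it had 15 of 26842 (0.0559%) and 21 of 27201 (0.0772%). NPM1 had 15 of 7457 (0.201%) and 7 of 7169 (0.0976%) after an A, and 15 of 12028 (0.125%) and 23 of 12459 (0.185%) after another base. Each transcript was thus higher with ABA after an A and lower after other bases, though none of these 4 differences exceeds its counting interval.

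Pooled over the 5 transcripts, the ratio was 2.21 (1.22 to 4.17) after an A, from 38 and 17 reads, and 1.03 (0.686 to 1.53) after other bases, from 53 and 52 reads. The quotient of these ratios was 2.15 (1.08 to 4.29). For the other nuclear positions the ratios were 2.08 (1.99 to 2.18) and 1.77 (1.71 to 1.83), with a quotient of 1.18 (1.11 to 1.25). The interval of the members' quotient includes the nuclear one. In NCL and NPM1 together it was 2.83 (1.31 to 6.15), and in FBL, NOP56 and DKC1 together 1.42 (0.248 to 8.13). These splits were examined after the totals were known and are given as a description. For the base after the position, the members' ratio was 0.989 (0.485 to 2.01) before an A and 1.44 (0.993 to 2.10) before another base, against 1.33 (1.26 to 1.41) and 2.06 (1.997 to 2.13) for the other nuclear positions.

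**Figure D4:**
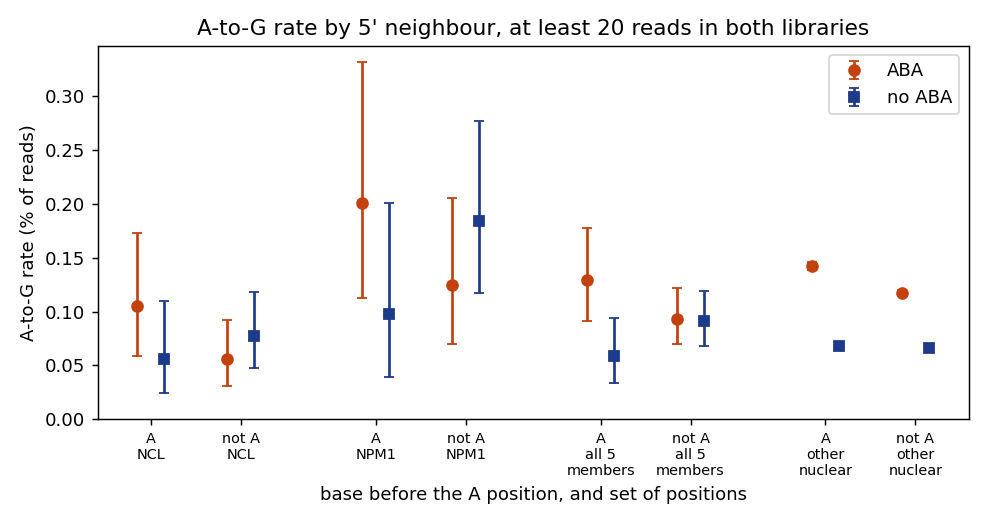
A-to-G rate in percent of reads (vertical axis) at positions of 20 or more reads in each library, split by whether the base before the position is a listed A, for NCL, NPM1, all 5 members and other nuclear positions. Points are pooled rates with ABA (orange) and without ABA (blue), and bars are 95% Clopper-Pearson intervals. After an A, the members had 0.129% with ABA and 0.0585% without, and after other bases 0.0933% and 0.0910%.

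Read depth of the transcripts, a measure of their amount in these libraries, was close to equal. Per 1000000 nuclear reads at positions listed in both libraries, NCL had 1054 with ABA and 1035 without, a ratio of 1.02 (1.004 to 1.03). NPM1 had 541 and 531, a ratio of 1.02 (1.001 to 1.04), and FBL 244 and 228, a ratio of 1.07 (1.04 to 1.10). NOP56 had 313 and 284, a ratio of 1.10 (1.08 to 1.13), and DKC1 had 316 and 329, a ratio of 0.962 (0.938 to 0.985). All 5 lay between the 5th and 95th percentile of nuclear blocks, 0.723 and 1.38. That range is a wide one for whole transcripts, because single blocks have fewer reads and vary more. The members' own tested blocks ran from 0.603 to 1.37. The DKC1 direction turned when all listed positions were used, at 1.05 (1.02 to 1.07). Counting error takes no account of the spread between cultures, which 1 library per condition cannot show.

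Depth was less even along the transcripts, and their 5' ends had fewer reads with ABA. In the first block with positions listed in both libraries, FBL had 93 reads with ABA and 199 without, a relative depth ratio of 0.480 (0.371 to 0.617). DKC1 had 334 and 569, a ratio of 0.603 (0.525 to 0.691), NOP56 had 182 and 268, a ratio of 0.698 (0.575 to 0.845), and NPM1 had 414 and 604, a ratio of 0.704 (0.620 to 0.799). NCL had 249 and 278, a ratio of 0.920 (0.772 to 1.10). All 5 were below 1, and in 4 of them, all but NCL, the interval was too. The ratios of these 4 were below the 5th percentile of nuclear blocks, 0.723, but the intervals of NPM1 and NOP56 reach above it. That percentile is from blocks of at least 200 reads anywhere in a transcript. It does not show whether such ratios are unusual for first blocks. In the last block the ratios ran from 0.953 in DKC1 to 1.15 in NOP56. A further 3 blocks, of 3 to 7 positions each, were listed without ABA alone, and 0 with ABA alone. They were the first of NOP56, the first of DKC1 and the tenth of NPM1, with 49, 25 and 24 reads. Over the whole series, too, fewer positions were listed with ABA, 3518802 against 4079392 without. The share of nuclear blocks listed in 1 library alone was not counted, so these 3 show nothing particular to the members. The first blocks listed in both libraries held 1 G read with ABA in each of NCL, FBL and NOP56. In NPM1 that block held 1 without ABA. The part of library or RNA quality in this depth difference was not tested.

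**Figure D5:**
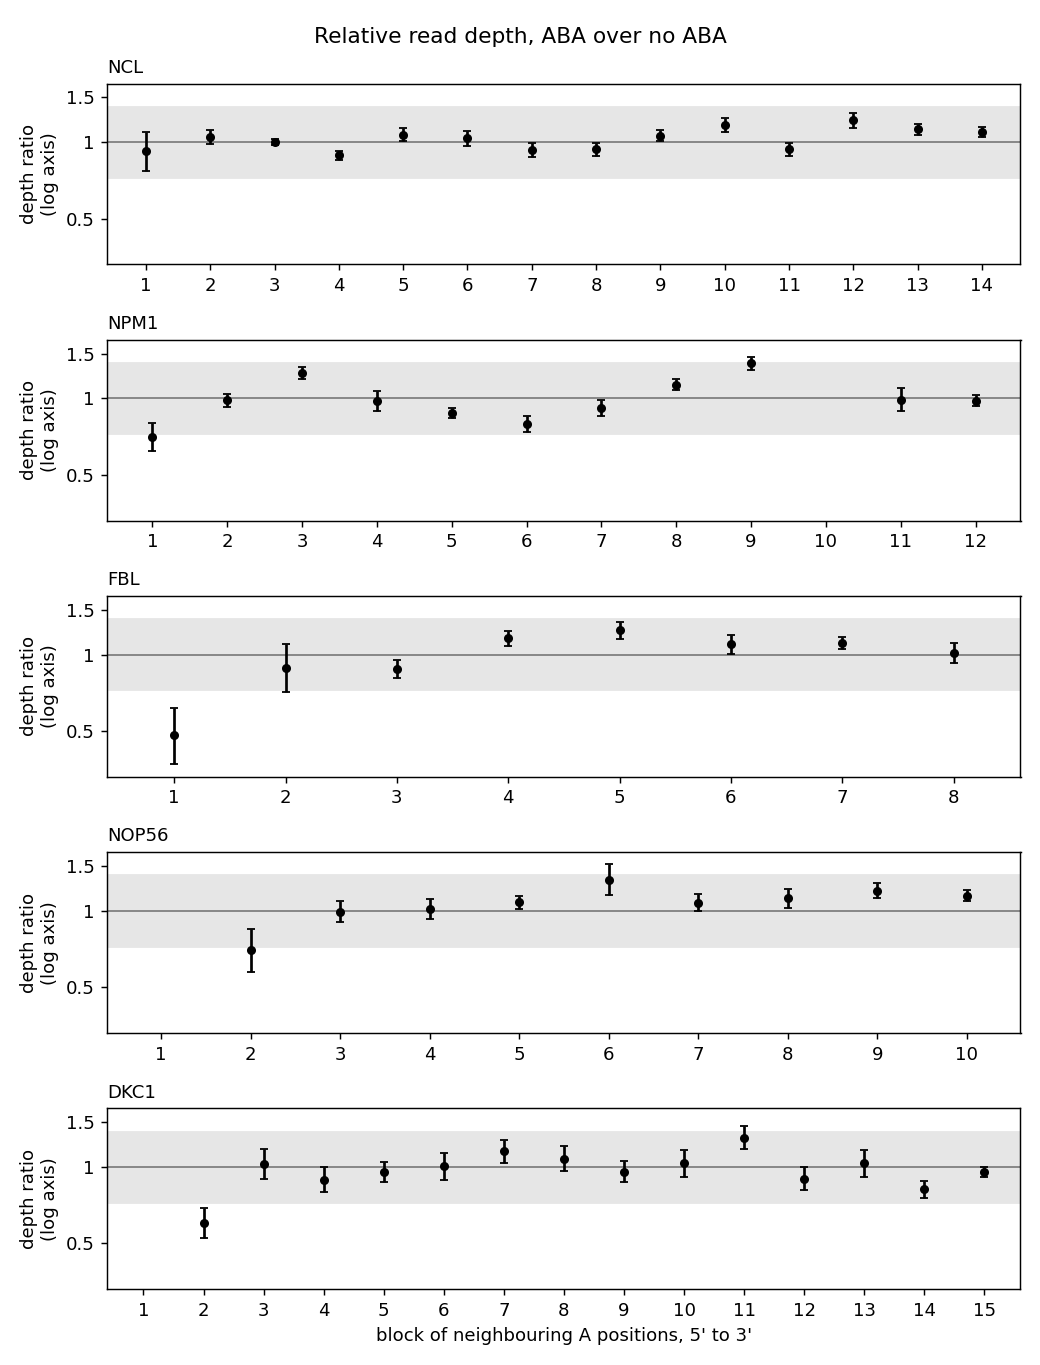
Relative read depth, ABA over no ABA (vertical log axis), of each block numbered 5' to 3' along each transcript, at positions listed in both libraries. Bars are exact 95% intervals of counting error, the grey line is 1 and the grey band spans the 5th to 95th percentile of nuclear blocks, 0.723 to 1.38. The first block shown has the lowest ratio in NPM1, FBL, NOP56 and DKC1, and missing points are blocks listed without ABA alone.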

How the data were processed

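Per the submitters' processing notes, cutadapt, HISAT2 and the hg19 build were used, with no versions. The authors deposited, for each library and strand, raw counts of reads with each base per listed position. The file headers name 5 as the single base read cutoff, and the lowest depth found is 6. The counting program, duplicate removal and the placing of multi-mapped reads are not given in the sources used here. Minus-strand T-to-C counts were read as A-to-G. Reads span several positions and no molecular identifiers are named, which makes the intervals too narrow.

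The A-to-G rate is G over A plus G reads. Clopper-Pearson intervals were used for shares, exact conditional binomial ones for ratios, and normal approximations for differences and quotients of ratios. Site, block and 10 kb window tests (two-sided Fisher's exact, Benjamini-Hochberg) were run over the whole table, and were tested on simulated data. The simulated rises were larger than the ratio of the other nuclear positions. They do not show whether a change of that size would be called. The members, lists and tests were chosen with earlier results of these data known. Named sites are the 4 with the most G reads over both libraries in each transcript (ties by share, then coordinate), named blocks the 3 with the most reads, plus those of low unadjusted p, chosen after their values were seen. The fixed comparison with other nucleolar genes needed an hg19 annotation and was not run. Scipy 1.17.1, pandas 2.3.3, numpy 2.4.6 and matplotlib 3.10.9 were run under Python 3.11.15.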

Additional observations from a re-analysis of the deposited data

How the results depend on the processing

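The A-to-G ratios of the 5 transcripts stayed within their own counting intervals under every alternative that gave a value. Alternatives kept variant-like positions, took positions listed in both libraries, or set coverage minimums of 10, 20 and 50. Others left out the top site or took all reads as denominator. At a minimum of 50, FBL lacked G reads without ABA and gave no value. NOP56 reached at most 47 reads without ABA and DKC1 at most 46 with ABA, so neither had a position to use there. NCL ran from 0.944 to 1.04 and NPM1 from 0.943 to 1.01. FBL ran from 2.09 to 2.89, and its interval also included 1 at a coverage minimum of 20 (2.64, 0.994 to 8.19). DKC1, with 8 G reads, ran from 2.16 to 6.61. NOP56 ran from 1.86 to 2.50. No member was called by the site, block or window tests under the alternatives run. Windows raised over the whole table numbered 28, but 17 with 5 kb windows, 37 with 20 kb windows, 33 with variant-like positions kept and 27 by a chi-square test, and windows lowered 0, but 2 with variant-like positions kept. At a share of at least 5%, 2 member sites counted as edited with ABA and 0 without. With all listed positions, the depth ratios were 1.12 for NCL, 1.12 for NPM1, 1.17 for FBL, 1.24 for NOP56 and 1.05 for DKC1; positions under the read cutoff then count in 1 library alone. No paired analysis was possible because each condition has 1 library. The intervals of NOP56 and DKC1 include both equal rates and the nuclear ratio, so neither could be told from the other at these G read counts.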

Other observations

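The opposite strand of the 5 windows, which no comparison used, also held listed positions, and they were fewer with ABA. NCL had 53 such positions with 533 reads with ABA and 110 positions with 1409 reads without ABA, or 1.26% and 3.30% of the reads on its own strand. FBL had 158 and 294 reads, 1.61% and 3.12%. NPM1 had 12 and 125 reads and DKC1 0 and 45, while NOP56 had 0 in both libraries. Over the 5 windows the reads came to 0.708% of those on the transcript strand with ABA and 1.89% without. They held 1 G read with ABA, in NCL, and 0 without ABA. The opposite strand was not examined outside the 5 windows, so these values show nothing particular to them. The ABA library also listed fewer positions over the whole series, 3518802 against 4079392. Whether the read cutoff has a part in the opposite-strand counts was not tested.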
